A study of Homo sapiens with 24 samples.

Results

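The human prostate cancer cell lines PC3, DU145 and LNCap were transfected with miR-145, and the change of each transcript was read on 1 two-colour microarray per line. These 3 arrays were taken by their labels from the 24 arrays of the series. On each array the RNA of miR-145 transfected cells carried the dye Cy5 and the RNA of the same line transfected with a control miRNA carried Cy3. Both RNAs of an array came from cells transfected with Lipofectamine RNAiMAX and grown in RPMI 1640 or DMEM, and the label does not say which line had which medium. The arm, dose and time of miR-145 are not given in the sources used here. No array had its dyes swapped, and no line had a second array, so the lines themselves served as the 3 replicates and the error is the spread between lines. Each line is a long-established culture and stands for 1 tumour. For comparison there were 13 arrays of the same design with other treatments: genistein in PC3 and DU145, si-CAV2 in A498 and 786O, miR-375 in FaDu, si-LAMB3 in FaDu and SAS, wogonin in SAS and FaDu, miR-29a in SAS, and, each in PC3, miR-24, miR-27b and miR-23b. The miR-145 arrays lay on 1 slide of 8 arrays with 5 of these arrays (genistein, si-CAV2 and miR-375), and the others lay on a second slide. Values of 2 arrays of another design, with miR-143 in DU145 and PC3, are set beside them at the end with no test. The number of arrays limits the precision of every value. All values below are log2 ratios of miR-145 over control miRNA unless another scale is named, so a negative value means less signal with miR-145.

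A microRNA is a short RNA that pairs with messenger RNAs, mainly through its seed at the 5′ end, and lowers their stability and translation. miR-145 is made from the same primary transcript as miR-143, is abundant in smooth muscle and is often low in epithelial tumours, prostate cancer included. FSCN1 encodes fascin, which bundles actin filaments in the protrusions of moving cells, and is an often reported target of miR-145. Cells also sense foreign RNA: receptors such as RIGI, IFIH1 (MDA5) and TLR3 switch on interferon genes, secreted interferons act through JAK kinases and factors such as STAT2 and IRF9, and these switch on the interferon-stimulated genes.

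The mature miR-145 sequences from RefSeq (GRCh38.p14) are shown because their seeds define the matches counted below. Capitals mark the seed, bases 2 to 8. Both lie on the plus strand, the 5p arm at chr5:149430661-149430683 and the 3p arm at chr5:149430699-149430720.
hsa-miR-145-5p: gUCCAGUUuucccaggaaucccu
hsa-miR-145-3p: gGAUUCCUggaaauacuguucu
The array's own 60-base probes carry transcript sequence, so a probe can itself hold a stretch complementary to the seed. The 23-base stretches around that match, in capitals, are shown for the 5 genes with the lowest mean ratios among those whose probe held it and whose ratio was below -0.5 in every line. They are written in transcript sense with their hg19 position and the strand of the probe in the array annotation.
FSCN1, chr7:5646230-5646252, plus strand: atgatagtagcttcaAACTGGAa
NUAK1, chr12:106457547-106457569, minus strand: gactgcttgttgccaAACTGGAa
INHBB, chr2:121108805-121108827, plus strand: acccacactagacgaAACTGGAc
NDFIP2, chr13:80127865-80127887, plus strand: tgtagccactattatAACTGGAa
FUCA2, chr6:143816947-143816969, minus strand: catggacagccacttAACTGGAt
The ratios of these genes follow below. A match of letters in a probe is a description and not a proven site.

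The arrays held 42405 distinct probes, of which 28403 (67.0%) were named to 1 of 20508 genes. Probes entered the tests if Cy3, Cy5 or both exceeded background clearly (the software's well-above-background mark) on all 3 miR-145 arrays, which left 23275 probes. They stand for 13229 genes, read through the brightest probe where a gene had several. Of these genes, 12232 were well above background in all 6 channels. Between 59.2% and 66.2% of spots were well above background in a channel of these arrays, and no spot was saturated. The median gene had a ratio of -0.06 in PC3, -0.02 in DU145 and -0.10 in LNCap. The control channels carried the markers of their lines, as signals on a log2 scale that was not normalized between arrays: KLK3 (PSA), by its brightest probe, was at 16.9 in LNCap and not well above background in PC3 and DU145, and CAV1 was at 13.4 and 12.7 in PC3 and DU145 and not well above background in LNCap. The basal marker KRT5 and the stromal markers COL3A1, DCN and LUM were not well above background with control miRNA in any line. Other listed markers were: COL1A1 was at 9.36, 4.46 and 6.78 in PC3, DU145 and LNCap, and CD14 at 5.14, 5.26 and 6.70. PTPRC and PECAM1 were well above background in PC3 and DU145 only, and VWF in LNCap only, at 8.84.

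FSCN1 had the lowest mean of the genes past -1 in every line with all channels above background. Its ratio was -3.57 in PC3, -2.30 in DU145 and -1.82 in LNCap, a mean of -2.57 ± 0.91 (SD, n = 3 lines). It was lower with miR-145 in 3 of 3 lines, least in LNCap. In these bulk RNAs a lower level per cell and fewer cells that carry the RNA cannot be told apart. The control signal of its probe was 15.4, 14.3 and 9.13 on the log2 scale in PC3, DU145 and LNCap, so LNCap started lowest. The mean did not pass limma across the 3 lines (adjusted p = 0.103), where the spread between lines is the error. In a limma fit of all 16 arrays of the design, with a mean for each treatment, the adjusted p was 0.00504. The spread of all 16 arrays, here and below, is that within treatments, and treatments with 1 array add nothing to it. Against the 13 arrays of other treatments the difference was -2.42 (adjusted p = 0.0716 in limma). FSCN1 was not low with miR-145 alone: its ratio was -2.15 with miR-24 in PC3, -1.74 with genistein in PC3 and -1.68 with miR-29a in SAS, and 2.22 with miR-375 in FaDu. PC3 and DU145 lay below all 13 of these values, and LNCap lay within their range.

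**Figure D1:**
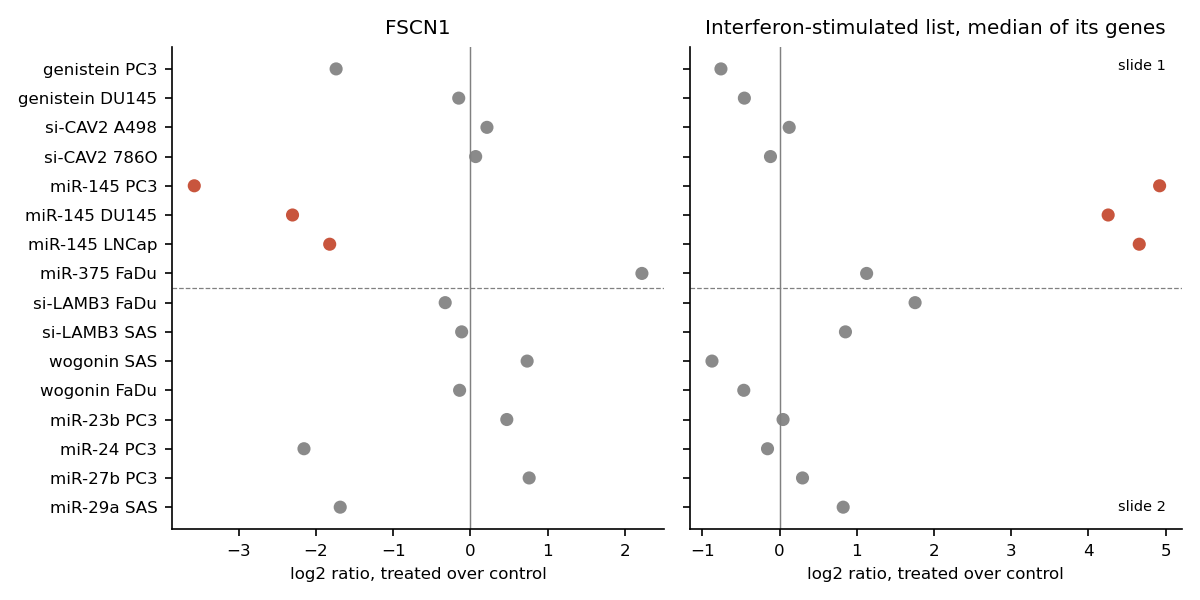
Log2 ratio of treated over control signal on the 16 arrays of the design, for FSCN1 (left) and as the median of the 32 interferon-stimulated genes (right). Each point is 1 array, miR-145 is in red, and the dashed line parts slide 1 from slide 2. FSCN1 was at -3.57, -2.30 and -1.82 with miR-145 and reached -2.15 with miR-24, whereas the interferon medians of 4.25 to 4.92 with miR-145 stood above the highest other value of 1.76.

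Changes that went the same way in every line were common, and more genes were strongly higher than strongly lower. Of the 13229 genes, 332 were below -0.5 in each line (2.51%) and 443 were above 0.5 in each line (3.35%). Past 1.0 in each line there were 29 lower and 230 higher genes, of which 20 and 149 were well above background in all channels. The balance at 0.5 depended on the reference and on the background correction and dye normalization, which were changed together: there were 68 lower and 347 higher genes with normexp and loess, 88 and 385 with loess and no background correction, and 741 and 626 after subtraction of the mean of the other arrays of the slide. PC3 had the most genes below -0.5 (2431, beside 865 in DU145 and 1360 in LNCap). Ratios past 2 upward were found for 336 genes in PC3, 168 in DU145 and 419 in LNCap, and past 2 downward for 50, 5 and 13. Across the tested genes Pearson's r was 0.75 between PC3 and DU145, 0.65 between PC3 and LNCap and 0.57 between DU145 and LNCap, and without the 32 interferon-stimulated genes 0.72, 0.62 and 0.52. The highest r of a miR-145 array with any of the 13 arrays of other treatments was 0.28. The genes are not independent replicates, and the arrays share their dye orientation and a slide.

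Downward, limma across the 3 lines called 6 genes (0.0454% of those tested), AGAP2, ATP6V0A4, DNAH10, LIN28A, MIP and TAT, and upward 86 (0.65%). The lower 6 had close values in the lines, between -1.04 and -2.0, but were low with the other treatments too, with medians over 13 arrays from -0.50 in ATP6V0A4 to -1.84 in MIP, and none passed limma against them (adjusted p of 0.364 to 0.966). In AGAP2, ATP6V0A4, DNAH10 and LIN28A the miR-145 signal was not well above background in 2 or 3 lines, so those ratios are not exact. Against the other treatments, which share the dye orientation, limma called 77 genes lower (0.582%) and 293 higher (2.21%). Of the 332 genes lower in every line 53 passed this second test, and of the 443 higher genes 250 did. With the slide as a block the calls were 30 lower and 209 higher genes. Counted as probes, limma across the lines called 23 lower and 123 higher of 23275, and 134 lower and 220 higher after subtraction of the mean of the other arrays of the slide. With 1 line left out of the fit across the lines, limma called no probe without PC3 (2992 had an unadjusted p under 0.05), 77 without DU145 and 48 without LNCap, all of the latter higher. Against the other treatments 534 probes were called, 214 without PC3, and 243 with the cell line as a block, a fit added after the data had been seen in which PC3 and DU145 alone give the difference.

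The 12 largest mean falls ran from -2.57 in FSCN1 to -1.42 in INHBB. After FSCN1 came ABHD17C, which removes palmitate from proteins, at -2.70 in PC3, -1.63 in DU145 and -1.28 in LNCap, and it fell against the other treatments (difference -1.81, adjusted p = 0.0354). VMA21, an assembly factor of the proton pump of lysosomes, was at -2.26, -1.41 and -1.37. SLC26A2, a sulphate transporter, was at -2.36, -1.32 and -1.07. BLOC1S6, a subunit of a complex in the making of lysosome-related organelles, was at -2.24, -1.07 and -1.20. In each of these genes PC3 was lowest, and DU145 and LNCap lay closer to each other than to PC3.

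SORL1, a sorting receptor of the endosome, was at -2.35 in PC3, -1.06 in DU145 and -1.08 in LNCap, and the median over other treatments was -0.75. UNG, the glycosylase that removes uracil from DNA, was at -1.98, -1.23 and -1.27 and fell against the other treatments (difference -1.76, adjusted p = 0.0228), though not with the slide as a block (adjusted p = 0.151). DTD1, which clears mischarged transfer RNAs, was at -1.97, -1.36 and -1.15, below every one of the other 13 values (-0.41 to 0.75). Of the 12 it alone passed limma against the other treatments both without the slide block (difference -1.63, adjusted p = 0.00106) and with it (adjusted p = 0.00501). NAP1L1, a histone chaperone, was at -2.01, -1.26 and -1.16 and fell against the other treatments (adjusted p = 0.0138), with an adjusted p of 0.0767 under the block. NUAK1, a kinase related to AMPK, was at -1.83, -1.41 and -1.23, and INHBB, a subunit of activin and inhibin, at -1.87, -1.30 and -1.10. Neither passed limma across the lines or against the other treatments (NUAK1 adjusted p of 0.176 and INHBB of 0.564 in the latter), and with the spread of all 16 arrays NUAK1 had an adjusted p of 0.000915 and INHBB of 0.0587. The probes of both hold the seed match shown above. MIP, a water channel of the eye lens, was at -1.24, -1.63 and -1.65 but between -2.88 and -1.21 on all other arrays, and its difference from them was 0.40 (adjusted p = 0.56). Only VMA21 of the 12 had a second tested probe, and that probe was not below -0.5 in every line.

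**Figure D2:**
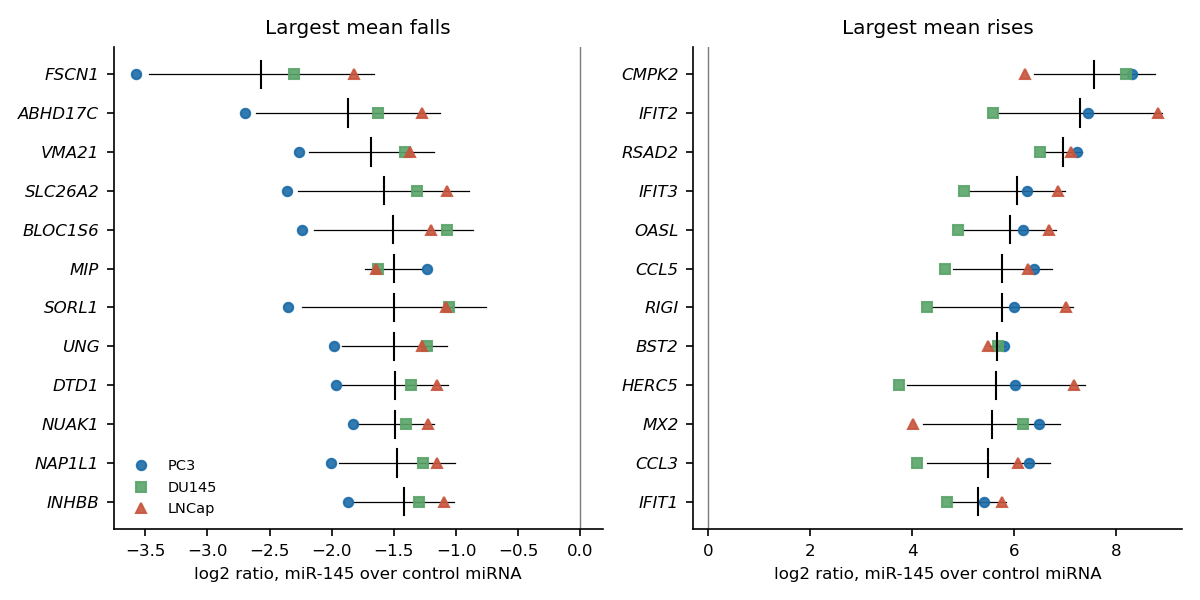
Log2 ratio of miR-145 over control miRNA in PC3 (circles), DU145 (squares) and LNCap (triangles) for the 12 genes with the largest mean falls (left) and rises (right) among genes past 1.0 the same way in every line. The upright tick is the mean and the bar the SD over 3 lines. PC3 had the lowest value in 11 of the 12 falls, and the falls end at -3.57 whereas the rises reach 8.82.

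Genes reported elsewhere as targets of miR-145 had list medians below that of all genes in PC3 and DU145 and close to it in LNCap. Of 62 listed genes 50 were tested. Their median was -0.51 in PC3, -0.36 in DU145 and -0.14 in LNCap, beside medians of -0.06, -0.02 and -0.10 over all tested genes. With the other treatments the median of the list lay between -0.26 and 0.22. There were 8 genes below -0.5 in every line (FSCN1, SWAP70, CBFB, PPP3CA, PXN, IGF1R, ADD3 and CLINT1), which is 8 of 50 where the whole table gives 2.51%. KLF4 was among those above 0.5 in every line. With loess after normexp or after no background correction, 3 of the 50 were below -0.5 in every line. Over all tested genes the count fell as well, from 332 to 68 with normexp and to 88 without background correction. limma against the other treatments called 3 of the 50 lower, where 0.582% of all tested genes were, and KLF4 was among those called higher (2.21% of all).

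The 3 genes called lower were SWAP70, CBFB and PPP3CA, and all of them also passed with the slide as a block. SWAP70, which acts in actin rearrangement at the membrane, was at -1.60 in PC3, -1.57 in DU145 and -0.82 in LNCap, all below the other 13 values (-0.60 to 0.76), with a difference of -1.26 (adjusted p = 0.0115). CBFB, the partner subunit of the RUNX factors, was at -1.79, -0.73 and -1.34, again below the other values (-0.48 to 0.62), with a difference of -1.45 (adjusted p = 0.00105). PPP3CA, the catalytic subunit of calcineurin, was at -1.62, -0.99 and -0.99, with other values of -0.52 to 0.18 and a difference of -1.13 (adjusted p = 0.00108). The 3 genes were picked by their calls against these same 13 arrays, so the lack of overlap is no separate support.

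IGF1R, the receptor of insulin-like growth factors, was at -0.85, -0.74 and -0.62, but between -1.96 and 0.71 with the other treatments. PXN, an adaptor of focal adhesions, was at -1.23, -0.71 and -0.51, and ADD3, which caps actin at the membrane skeleton, at -0.62, -0.52 and -0.87. CLINT1, an adaptor of vesicle traffic, was at -0.66, -0.54 and -0.52. None of these passed limma across the lines or against the other treatments, and with the spread of all 16 arrays CLINT1 did (adjusted p = 0.016). The insulin receptor substrates lay close to 0 in most lines: IRS1 was at -0.36, 0.30 and 0.14, and IRS2 at -0.62, -0.25 and -0.31. MYC was at 0.24, 0.09 and -0.50 and EGFR at -0.19, -0.07 and 0.04.

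On the higher side KLF4, a pluripotency factor, was at 2.65, 1.62 and 4.91 and rose against the other treatments (adjusted p = 0.0133), with an adjusted p of 0.098 under the block. NEDD9, a scaffold of adhesion signalling, was at 2.87 in PC3 and 1.76 in LNCap, and in DU145, whose control signal was not well above background, at least 1.08-fold higher. Of the 44 targets with all channels above background LNCap was above both other lines by 1.0 or more in 9 and below both by as much in none, where over all 12232 such genes 255 were above (2.08%) and 85 below (0.695%).

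**Figure D3:**
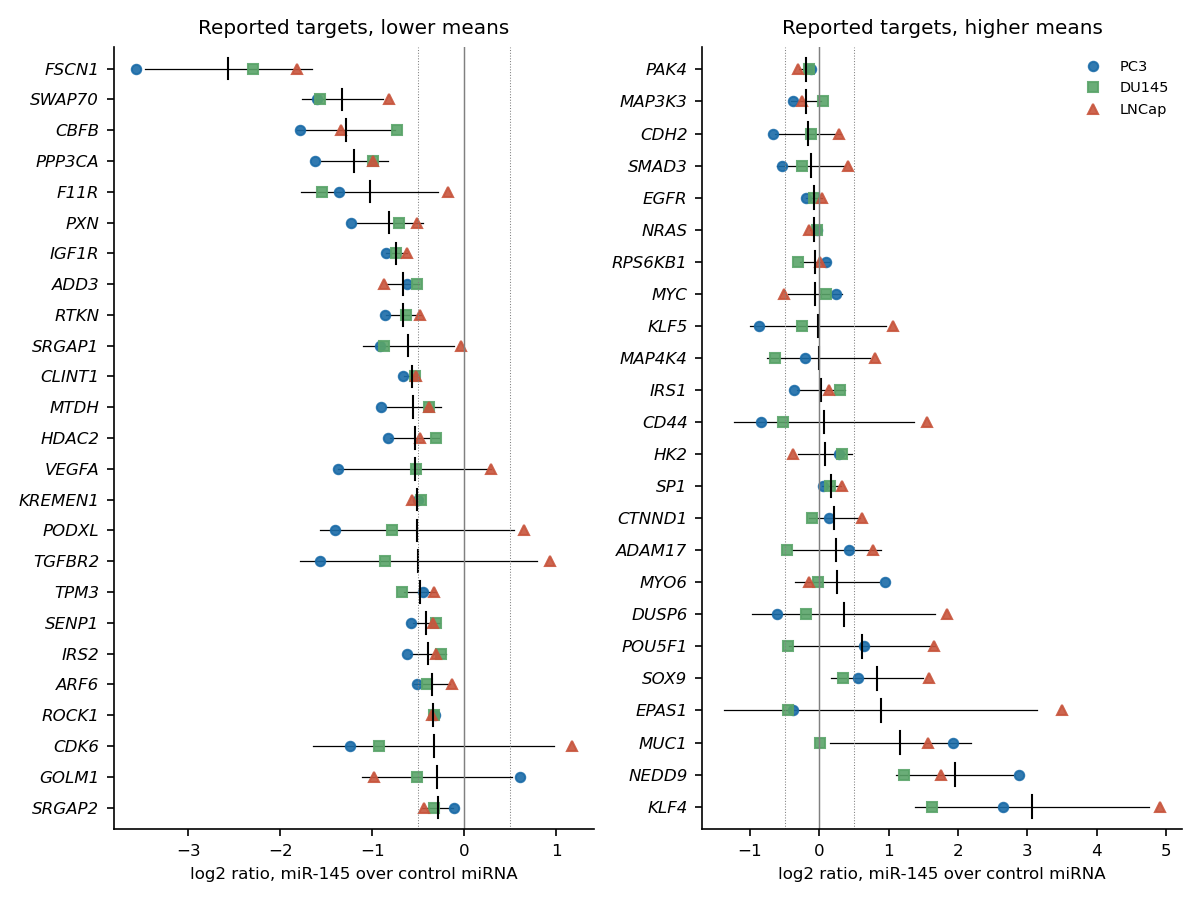
Log2 ratio of miR-145 over control miRNA for 49 of the 50 tested reported targets, ordered by their mean, in PC3 (circles), DU145 (squares) and LNCap (triangles). Upright ticks are means, bars are the SD over 3 lines, and dotted lines mark -0.5 and 0.5. Ratios are plotted as measured, also where a control signal was not well above background. FSCN1 and the 3 genes under it stand apart on the left, and from CDK6 to EPAS1 the LNCap triangle often lies far to the right.

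Probes that hold the seed match of miR-145-5p (AACTGGA) were lower than other probes by a small amount in each line. The median ratio of the 164 such tested probes, minus the median of the other probes, was -0.20 in PC3, -0.15 in DU145 and -0.13 in LNCap. On the other 13 arrays it lay between -0.12 and 0.03, so PC3 and DU145 stood clear of them and LNCap narrowly so. With an 8-base match (61 probes) the shift was -0.28, -0.23 and -0.12, and LNCap then lay within the range of the other arrays, which reached -0.19 with miR-24 in PC3. For the 3p arm (match AGGAATC, 102 probes) the shift was -0.08, -0.05 and -0.03 in the lines, within the range of -0.13 to 0.07 on other arrays. The same count made for other miRNAs gave their lowest values on their own arrays, with -0.28 for miR-23b-3p, -0.24 for miR-24-3p, -0.21 for miR-27b-3p and -0.12 for miR-29a-3p. For miR-375-3p only 10 probes held the match, and its own array (-0.05) did not stand apart. These are descriptions over probes, with no test.

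Of the representative probes of all tested genes 0.733% held the miR-145-5p match. The share was 1.81% (6 of 332) among genes lower in every line, 0.226% (1 of 443) among those higher, and 10.3% (3 of 29) among those below -1.0 in every line. The 3 are FSCN1, NUAK1 and INHBB. The others named with the sequences were NDFIP2, an adaptor of ubiquitin ligases, at -1.36, -0.63 and -0.94, and FUCA2, a fucosidase, at -1.10, -0.70 and -0.84. FUCA2 fell against the other treatments with and without the slide block (adjusted p of 0.0126 without it and 0.013 with it), and its second probe was below -0.5 in every line as well. A probe shows only 60 bases of a transcript, so genes whose probe lacks the match may hold it elsewhere.

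**Figure D4:**
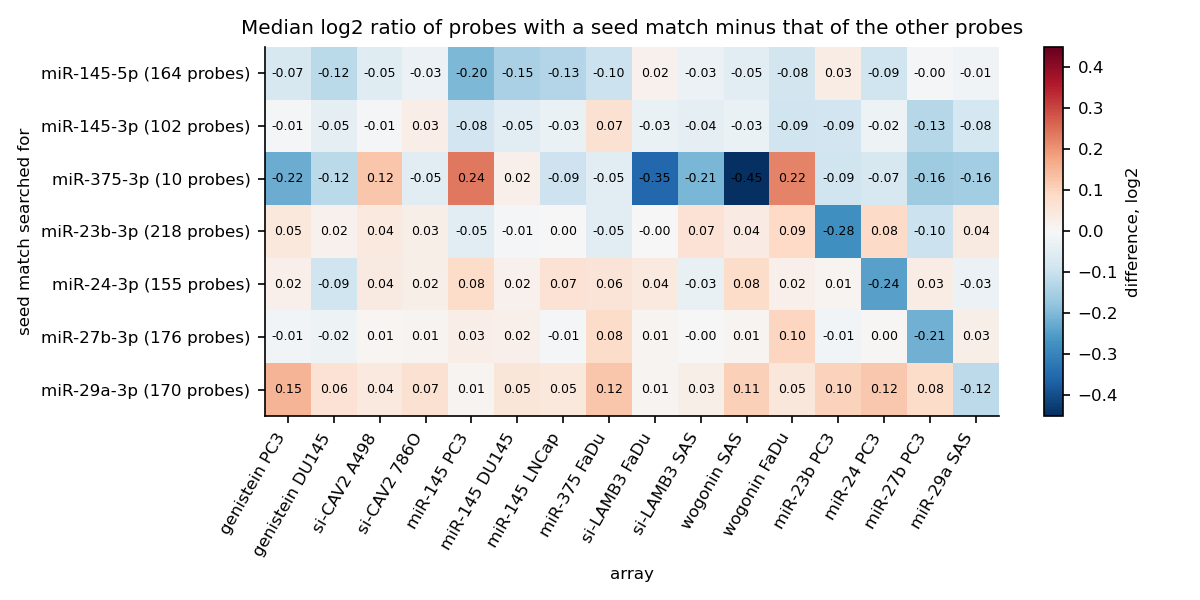
Median log2 ratio of tested probes that hold a miRNA's 7-base seed match minus the median of the other tested probes, for 7 miRNAs (rows, with their number of probes) on 16 arrays (columns). Blue is lower and red higher. miR-145-5p is lowest on the miR-145 arrays (-0.20, -0.15 and -0.13), as miR-29a, miR-27b, miR-24 and miR-23b are on their own, and the 10 probes of miR-375-3p scatter widely.

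The rises were led by genes of the interferon response, in every line. All 32 genes of the interferon-stimulated list were above 0.5 in each line, where 3.35% of all tested genes were, with medians of 4.92 in PC3, 4.25 in DU145 and 4.66 in LNCap. limma across the lines called 21 of them higher (0.65% of all genes), and limma against the other treatments called 32 of 32 (2.21% of all genes), with and without the slide as a block. The list was also higher in some other arrays: its median was 1.76 with si-LAMB3 in FaDu, where 30 of the 32 genes were above 0.5, 1.13 with miR-375 in FaDu, 0.85 with si-LAMB3 in SAS and 0.82 with miR-29a in SAS. It was -0.87 with wogonin in SAS and -0.76 with genistein in PC3. The control cells of the miR-145 arrays had themselves been transfected with a control miRNA. The part of the interferon response in the other differences described here was not tested.

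The largest mean rise with all channels above background was that of CMPK2, a mitochondrial nucleotide kinase, at 8.32 in PC3, 8.20 in DU145 and 6.21 in LNCap. IFIT2, which binds viral RNA and restrains its translation, followed at 7.45, 5.59 and 8.82, and RSAD2 (viperin) at 7.24, 6.52 and 7.12. IFIT3 was at 6.26, 5.02 and 6.87 and IFIT1 at 5.40, 4.69 and 5.77. BST2 (tetherin), which holds budding virus at the membrane, was at 5.80, 5.70 and 5.50 with an SD of 0.15. All of these rose across the lines, with adjusted p from 0.00536 (RSAD2 and BST2) to 0.046 (IFIT2). OASL was at 6.17, 4.91 and 6.68 and HERC5, the ligase that attaches ISG15, at 6.02, 3.74 and 7.18. The chemokines CCL5 and CCL3 were at 6.40, 4.65 and 6.28, and at 6.29, 4.11 and 6.08. DU145 was the lowest line in these genes but for CMPK2 and BST2, in which LNCap was. TRIM22 had control signals not well above background in all lines and was at least 198-fold higher in PC3, at least 29.8-fold in DU145 and at least 26.7-fold in LNCap.

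A motif was counted in the promoters. The core of the interferon-stimulated response element, searched as GAAANNGAAA on both strands from 250 bases before to 50 bases after the RefSeq start (GRCh38.p14), was found in 3.65% of all 27305 promoters in the table and in 2.87% of those of the tested genes. It was in 21.6% (73 of 338) of promoters of genes higher in every line, in 33.3% (55 of 165) of those above 1.0 in every line and in 62.5% (15 of 24) of the interferon list. Among genes lower in every line it was in 1.12% (3 of 267). A match is not proof of binding, and CMPK2 and RSAD2, with 2 of the largest rises, had none in this window. Sites of 4 genes are shown with the core in capitals, read on the strand given.
IFIT1, chr10:89392514-89392535, minus strand: cctaggGAAACCGAAAggggaa
BST2, chr19:17405745-17405766, minus strand: ttctggGAAACTGAAActgaaa
ISG15, chr1:1013378-1013399, plus strand: cctcggGAAAGGGAAAccgaaa
MX1, chr21:41420563-41420584, plus strand: agaaatGAAACCGAAActgaat
ISG15, a ubiquitin-like protein, was at 4.91, 4.17 and 5.59. MX1, a GTPase that blocks viruses, was at 4.93 and 4.52 in PC3 and DU145 and at 1.43 in LNCap.

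The interferon genes themselves were higher too. IFNB1, interferon beta, was at 8.09 in PC3 and 7.68 in LNCap, and in DU145, whose control signal was not well above background, at least 74.3-fold higher. The lambda interferons IFNL1, IFNL2 and IFNL3 were at 3.60, 3.34 and 3.64, at 4.66, 4.22 and 4.85, and at 5.20, 5.08 and 4.95 in PC3, DU145 and LNCap. The last of these varied by an SD of only 0.12. All 4 genes rose in both fits (adjusted p across lines of 0.00536 to 0.00881). IFNL2 and IFNL3 are near-identical copies, and a probe of one may read both. IFNE, an interferon of the reproductive tract, was at 0.27 and -0.12 in PC3 and DU145 and at least 4.20-fold higher in LNCap. IFNG and IFNK were not tested and were not well above background in any channel. IFNW1 was not tested because neither channel was well above background in DU145. In PC3 and LNCap its signal with miR-145 was well above background, at 8.53 and 9.11 on the log2 scale, and its control signal was not. This list and the next ones were drawn up after the values had been seen.

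No receptor of interferon passed limma across the lines or against the other treatments, whereas several signalling factors behind the receptors rose. With the spread of all 16 arrays IFNAR1 had an adjusted p of 0.0401. IFNAR1 was at -0.98, -0.78 and -0.42, IFNAR2 at 0.53, 0.05 and 0.26 and IFNLR1 at 0.78, 0.52 and -0.59. JAK2 was at 3.33, 1.72 and 3.0, STAT2 at 3.30, 3.0 and 1.36, IRF9 at 3.46, 2.86 and 3.87 and the feedback inhibitor SOCS1 at 1.86, 1.90 and 3.74. These 4 were among the genes of the group that rose against the other treatments. TYK2 lay between -0.06 and 0.11.

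Of 13 tested genes of RNA sensing, 9 were above 0.5 in every line (3.35% of all genes) and 8 rose against the other treatments (2.21% of all genes), with the slide as a block as well. The sensor RIGI was at 6.0, 4.29 and 7.03 and IFIH1 at 5.73, 3.71 and 5.56. TLR3, the sensor in endosomes, was at least 110-fold higher in PC3 and at 4.72 in DU145 and 2.99 in LNCap. The kinase EIF2AK2 (PKR) was at 1.84, 2.27 and 1.72 and the editing enzyme ADAR at 2.41, 1.75 and 1.43. The adaptor MAVS, the kinase TBK1 and the factor IRF3 were near 0, with values from -0.14 to 0.37.

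All 15 genes of MHC class I and antigen processing were above 0.5 in each line (3.35% of all genes), with medians of 2.63, 1.86 and 2.37, and 12 rose against the other treatments (2.21% of all genes). PSMB9, a subunit of the immunoproteasome, was at 4.20, 2.99 and 3.83, TAP1, the peptide transporter, at 4.03, 2.99 and 2.72, and B2M, the light chain of class I molecules, at 2.22, 1.54 and 3.40. HLA-B was at 3.90, 1.96 and 2.35 and HLA-C at 4.04, 2.02 and 2.37, near-identical genes whose probes may read both.

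The lists of other pathways are described by their counts past 0.5 in every line, which over all genes are 2.51% lower and 3.35% higher. Of 40 genes of actin bundling and motility only FSCN1 and PXN were below -0.5 in every line, and the medians were 0.01, -0.02 and 0.13. The other bundling proteins did not follow FSCN1: PLS3 was at 1.33, 0.19 and 1.85, LCP1 at 0.12, 0.45 and 0.03 and ACTN4 at 0.06, -0.01 and 0.42. Of 10 tested smooth muscle genes ACTA2, smooth muscle actin, was above 0.5 in every line (1.73, 0.79 and 1.34), within the range of other treatments (-2.89 to 1.60) but for PC3. Of 23 genes of insulin and IGF signalling IGF1R and PIK3CB were below -0.5 in every line and IGFBP6 above 0.5. PIK3CB, a catalytic subunit of PI3 kinase, was at -0.75, -0.58 and -0.71. IGFBP6, which binds and holds back IGF2, was at 2.50 in PC3 and 1.12 in DU145 and at least 63.0-fold higher in LNCap, and was the 1 gene of the group called against other treatments (adjusted p = 0.00297).

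TGF-beta signalling had medians of -0.54 in PC3, -0.20 in DU145 and 0.12 in LNCap over 13 genes, with SMAD2 below -0.5 in every line (-1.55, -0.77 and -0.74). Of 20 epithelial and mesenchymal genes DSP, desmoplakin, was above 0.5 in every line (1.37, 0.66 and 0.71) and none was below. Of 14 androgen-responsive genes PMEPA1 (-3.77, -1.60 and -0.89) and HOMER2 (-1.91, -1.14 and -1.08) were lower in every line. PMEPA1, an inhibitor of TGF-beta and androgen signalling, was the lowest of all tested genes in PC3 and lower than FSCN1 there, but varied widely between lines (adjusted p = 0.167 across lines and 0.107 against other treatments).

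Among 20 p53 targets CDKN1A (p21) at 2.72, 0.52 and 1.22, BBC3 (PUMA) at 4.16, 1.73 and 2.87, and FAS at 3.11, 1.17 and 3.27 were above 0.5 in every line. Against other treatments limma called 1 of the 20 higher, BBC3 (adjusted p = 0.0124), and 1 lower, where 2.21% and 0.582% of all genes were. Under the block it called none of them (BBC3 adjusted p = 0.0638). The list medians were -0.002, 0.07 and 0.24 in PC3, DU145 and LNCap. Below -0.5 there were 5, 2 and 0 of the 20 genes, and above 0.5 there were 3, 5 and 8. Mitotic genes had medians of -0.67, -0.35 and -0.41 over 30 genes, with BUB1B, KIF20A and CENPA below -0.5 in every line. None of the 30 passed a test, and the same list had medians from -2.64 with genistein in PC3 to 1.08 with miR-27b in PC3. None of 32 S phase genes was past 0.5 the same way in every line.

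LNCap stood apart from the other lines in more genes than PC3 or DU145 did. Of 12232 genes with all channels above background, LNCap lay above both other lines by 1.0 or more in 255 (2.08%) and below both in 85 (0.695%). PC3 lay outside the range of the other lines by as much in 253 genes and DU145 in 160. With 1 array of LNCap, limma called none of the 13229 genes as differing (0.0%), and of the 23275 probes 1555 had an unadjusted p under 0.05. With the spread of all 16 arrays 67 probes passed, 63 of them higher in LNCap. The line values that follow are thus descriptions of 3 arrays.

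**Figure D5:**
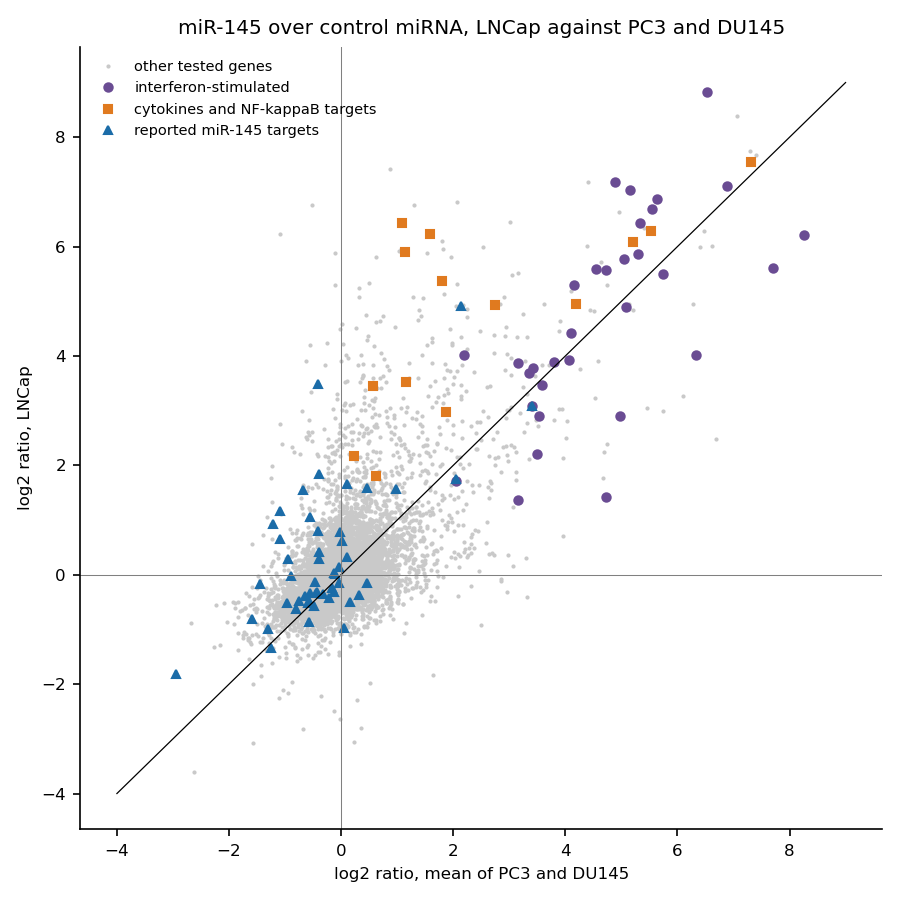
Log2 ratio of miR-145 over control miRNA in LNCap against the mean of PC3 and DU145, for 13229 genes, with the interferon-stimulated list (circles), cytokines and NF-kappaB targets (squares) and reported miR-145 targets (triangles) marked. The line is equality. Ratios are plotted as measured, so points with a dim control signal are not exact. The squares lie mostly above the line, such as BIRC3 at 5.90 in LNCap, and MX1 is the circle farthest below it, at 1.43 in LNCap.

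Of genes with all channels above background NPTX1, a neuronal pentraxin, stood highest in LNCap relative to the others. It was at 1.30 in PC3, 0.45 in DU145 and 7.42 in LNCap. CCN3, a matrix protein, was at -0.62, 0.40 and 5.29. The protease inhibitor SPINK1 was at 1.13, 0.13 and 5.81, the serine protease PRSS23 at 0.93, -0.27 and 5.25 and the elastase inhibitor PI3 at 0.02, 0.53 and 4.51. SBSN was at 0.06, -0.03 and 4.59, SDCBP2 at -0.25, 0.90 and 5.07 and CHST15, a sulphotransferase, at 0.74, 0.13 and 4.75. IER3, an early response gene, was at -0.97, -0.27 and 3.92. For each of these genes but SPINK1, SBSN and SDCBP2 the control signal was lowest in LNCap. That of IER3 was 13.8, 13.6 and 5.36 in PC3, DU145 and LNCap, on a log2 scale not normalized between arrays. With miR-145 IER3 was still lower in LNCap, at 9.26 beside 12.8 and 13.3. NPTX1 had control signals of 6.35, 8.62 and 4.93, and with miR-145 LNCap was highest, at 12.3 beside 7.65 and 9.08.

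Some NF-kappaB targets divided the lines. BIRC3, an inhibitor of apoptosis, was at 1.83 in PC3, 0.44 in DU145 and 5.90 in LNCap. TNFAIP3 (A20), the feedback inhibitor of the pathway, was at 3.17, 0.43 and 5.37 and the subunit RELB at 1.11, 0.04 and 3.44. CXCL8 was at 1.79 and 0.40 and in LNCap, whose control signal was not well above background, at least 27.0-fold higher. TNF, likewise dim in every control channel, was at least 3.16-fold higher in PC3, 1.16-fold in DU145 and 36.7-fold in LNCap. Of the 14 tested cytokines and NF-kappaB targets 7 had all channels above background. Among these 7 LNCap was highest in 5 and above both other lines by 1.0 or more in 3 (BIRC3, TNFAIP3 and RELB), where over all 12232 such genes it was highest in 3620 and above in 255. The list was drawn up after the values had been seen, so these shares describe its members and are no support. NFKBIA, at 2.78, 0.96 and 2.98, and NFKB2, at 0.96, 0.28 and 1.80, were not among the 3. CXCL10 and CXCL11 had close values in PC3 and LNCap. CXCL10 was at 4.69 in PC3 and 4.94 in LNCap and at least 12.95-fold higher in DU145. CXCL11 was at 7.93 in PC3 and 7.54 in LNCap and at least 42.9-fold higher in DU145. What drives these genes was not tested.

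On the lower side LNCap showed weaker rises of part of the interferon list. MX1 stood lowest relative to the others, with LNCap 3.30 below their mean. MX2 was at 6.50, 6.17 and 4.03, USP18, which removes ISG15, at 5.51, 4.43 and 2.90, and STAT2 at 3.30, 3.0 and 1.36. CMPK2 was at 8.32, 8.20 and 6.21. SP110, a nuclear body protein that is not on the list, was at 4.71, 4.69 and 2.24. In the list of 32 genes LNCap was below both other lines by 1.0 or more in 5 and above both in 4, was the highest line in 14 and the lowest in 11. Over all 13229 tested genes it was below both in 136 and above both in 410, and was the highest line in 4007 and the lowest in 5071. The list as a whole was thus not lower in LNCap.

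Other genes had high ratios in PC3 and DU145 and ratios near 0 in LNCap. Of 226 genes above 1.0 in both, 48 were below 0.5 in LNCap. They include IL1RN, the antagonist of the interleukin 1 receptor, at 4.53 in PC3, 1.39 in DU145 and -0.32 in LNCap, CYP2J2, an epoxygenase, at 4.05, 2.55 and 0.30, and PDGFRL at 2.83, 2.86 and -0.12. PDZD2 was at 2.68, 3.46 and 0.16, TMEM229B at 3.50, 2.44 and 0.36, the nucleotidase NT5C3A at 3.33, 2.14 and 0.36 and the microtubule protein MAP2 at 4.23, 1.17 and 0.39. TRIM5, a factor that restricts retroviruses, was at 2.54, 2.22 and 0.50. FMO5 was at 2.13, 2.50 and -0.21 and NTNG2 at 1.69, 2.49 and -0.39. Of these genes IL1RN, CYP2J2, TMEM229B, MAP2 and NTNG2 had their highest control signal in LNCap, and the others did not. That of IL1RN was 4.92, 4.75 and 12.3 on the log2 scale in PC3, DU145 and LNCap. With miR-145 IL1RN was at 9.45, 6.14 and 12.0, so LNCap stayed highest. PDGFRL had control signals of 8.25, 6.62 and 6.84, and with miR-145 LNCap was lowest (11.1, 9.48 and 6.72).

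Falls of PC3 and DU145 that LNCap lacked were fewer, 7 of 45 genes below -1.0 in both. ACO1, which holds either aconitase activity or the binding of iron-responsive elements, was at -1.97, -1.90 and -0.49. PITPNM3 was at -2.08, -1.60 and -0.49, CMTM4 at -1.68, -1.24 and -0.40, AGAP1 at -1.69, -1.01 and -0.23 and PSD3 at -1.36, -1.05 and -0.18. F11R, a junction protein (JAM-A) and a reported target, was at -1.37, -1.54 and -0.18, but its median with other treatments was -0.64. ACTRT2 was at -1.34, -1.01 and -0.41 and low elsewhere too, with a median of -1.0.

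miR-143, the neighbour of miR-145, was tested in DU145 and PC3 on arrays of another design, and the values stand here side by side with no test. FSCN1 was at -0.35 in DU145 and -0.64 in PC3 with miR-143. DTD1 was at 0.05 and -0.04 and NAP1L1 at -0.10 and -0.12. The interferon genes named above were near or below 0 with miR-143, with IFIT1 at -0.29 and -0.11, RSAD2 at -0.36 and -0.02 and CMPK2 at -0.36 and 0.06. MIP was at -1.98 and -2.21 there as well.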

How the data were processed

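Total RNA of 3 cell lines was measured on Agilent two-colour arrays. The authors extracted RNA with Trizol, labelled it with an Agilent low-input kit and read the scans with Agilent Feature Extraction 10.7.3.1, which subtracted background and normalized the dyes. Per the file headers, the deposited log10 ratio is Cy5 over Cy3, its error is a score of the software's error model, and signals are intensity values. The deposited series table held the same log10 ratios, with a largest difference of 0 over 62976 features, so its centring is that of the software. Ratios of unflagged, non-control spots were averaged per probe and multiplied by 3.32 to give log2 values. The error of the software was not used in the tests. No other column of the tables was needed, and the authors' arrays of the other design entered only for miR-143.

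Means were tested against 0, against 13 other arrays of the design, and LNCap against PC3 and DU145, with limma 3.58.1 in R 4.3.3 (lmFit and eBayes, two-sided, Benjamini-Hochberg over all tested probes, limit 0.05), and pandas 2.3.3 in Python 3.11.15 gave counts. These p-values measure the spread between lines, or between arrays of different treatments, and nothing states separate cultures. The fits were tested on simulated data. Background correction together with dye normalization, centring, filters, limits, the choice of other arrays and single lines were varied in turn. Where a control signal was not well above background on a line's array, the fold is a bound: the signal with miR-145 over the higher of the lowest signal well above background and the control's own.

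The experiment and its gene lists were chosen with earlier results of these data known. Named genes were FSCN1, the reported targets, the 12 largest mean falls and rises among genes past 1.0 in every line with all channels well above background, the 10 largest differences of LNCap each way, and the 8 largest falls and rises of PC3 and DU145 that LNCap lacked. List members were named where their list is described. Some members of the lists are counted in them but not reported here by name. The lists of interferon genes, interferon signalling, RNA sensing, cytokines and NF-kappaB targets, and MHC class I were drawn up after the values had been seen, as were the names AGAP2, ATP6V0A4, DNAH10, LIN28A, MIP and TAT as a set.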

Additional observations from a re-analysis of the deposited data

Results flagged for a closer look

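The lines moved in opposite directions past 0.5 for 5 of 366 genes looked at, with PC3 and DU145 on one side and LNCap on the other. The 366 were the tested list members and the named genes, some of them picked because LNCap differed, so this share is no support. CDK6, a kinase of the G1 phase, was at -1.24 in PC3, -0.93 in DU145 and 1.17 in LNCap, so LNCap was 2.25 above the mean of the others. PODXL, a sialomucin of the cell surface, was at -1.40, -0.79 and 0.65, a difference of 1.75. CD44, the hyaluronan receptor, was at -0.84, -0.52 and 1.55 (difference 2.23), and TGFBR2, the type II receptor of TGF-beta, at -1.57, -0.86 and 0.93 (difference 2.15). In both of these the control signal of LNCap was not well above background, so the rises there are bounds, at least 2.93-fold and at least 1.86-fold. IFNLR1, the receptor of lambda interferons, went the other way, at 0.78, 0.52 and -0.59 (difference -1.24). The first 4 are reported miR-145 targets, and all tested targets were among the genes looked at. Over all 13229 tested genes 29 were lower in PC3 and DU145 and higher in LNCap in this sense, and 14 the reverse. With 1 array of LNCap these differences rest on no replicate of that line, and limma across the lines called none of them.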

How the results depend on the processing

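FSCN1 stayed lower under every alternative run, with means of -2.94 to -2.06 when 1 line was left out. Background correction and dye normalization were changed together (loess after normexp, or after no background correction). The count of genes lower in every line, 332, was 68 with normexp, 88 without background correction, 741 and 591 after subtraction of the mean of the other arrays of the slide and of the design, and 29 at a limit of 1.0. The count of higher genes, 443, was 230 at a limit of 1.0. With 1 line left out, which asks for agreement of fewer lines, these counts were 382 to 805 and 489 to 899, and they were largest without DU145. Reported targets lower in every line, 8 in the report, were 3 with normexp, 3 without background correction, 5 after median centring and 1 at a limit of 1.0, and 9 to 16 with a line left out. The shift of seed-match probes, -0.16 as a mean of the lines, was -0.093 with normexp, -0.11 without background correction, -0.11 after subtraction of the design's mean, -0.0413 without a filter on dim probes, -0.21 for an 8-base match and -0.17 to -0.14 with a line left out.

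The 146 probes that limma called across the lines became 354 after subtraction of the slide's mean, 1539 with the spread of all 16 arrays, 0 without the filter (6448 with an unadjusted p under 0.05) and 0 to 77 with a line left out (0 without PC3, 48 without LNCap). The 534 called against other treatments became 220 against the 5 other miRNA arrays, 217 against the other PC3 and DU145 arrays, 243 with the cell line as a block (chosen after seeing the data) and 214 to 535 with a line left out, the lowest without PC3. Genes apart in LNCap, 340, were 220 with normexp (32 below and 188 above), 1289 without the filter (464 below and 825 above) and 90 at a distance of 2.0. LNCap calls, 0 in limma, were 67 with the spread of all 16 arrays. MIP changed sign, from -1.50 to 0.16 and 0.40 after subtraction of the slide's and the design's mean. Where no reason is given, the cause was not tested. Cultures could not be paired across arrays, because the labels give no replicate numbers to pair by. The ratio itself sets treated against control RNA of 1 line on 1 array. Arrays of the same line were matched only in the fit with the cell line as a block. Signals not well above background in a control channel limit the values for LNCap most among the reported targets, with 5 genes there.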
